A study of Homo sapiens with 2 samples.

Results

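A set of 10 genes of extrinsic apoptosis was followed between Ramos and Ramos640 cells: the death receptors FAS, TNFRSF10A, TNFRSF10B and TNFRSF1A, the related TNF receptor TNFRSF1B, the adaptors FADD and TRADD, the kinase RIPK1, the caspase-8 inhibitor CFLAR and the deubiquitinase CYLD. They were chosen by name, with earlier results of these data known, and all 10 had a row among the 37122 rows of the count table. Ramos is a human Burkitt's lymphoma cell line of B-cell origin. Ramos640 was derived from it by treatment with escalating rituximab, an antibody against the B-cell protein CD20, in the presence of normal human serum as a source of complement. Its resistance to complement-dependent killing was kept up by rituximab and 20% normal human serum every 21 days. The sample labels give the rituximab dose as 640 mg/mL, with a unit larger than the μg/mL named for the culture in the methods. Both lines grew in RPMI medium with fetal bovine serum and penicillin/streptomycin. Whether Ramos640 is a single clone is not given in the sources used here.

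RNA from 3 passages of each line was pooled before sequencing, so there was 1 library per cell line, with 38030090 reads for Ramos and 30871826 for Ramos640. No difference between the lines therefore has a replicate check, and every interval given is a 95% interval for counting error only. Median-of-ratios size factors of 1.14 for Ramos and 0.876 for Ramos640 scaled the counts, and log2 fold changes (Ramos640 over Ramos) were computed with 1 added to each normalised count. A gene was tested when it had at least 10 reads in both libraries together, and was counted as higher or lower when it was past 1.5-fold. All 6 B-cell markers examined were read in both libraries, and their summed level was 4033 CPM, the count scaled to the library total, in Ramos and 4619 CPM in Ramos640. MS4A1, which encodes CD20, the target of rituximab, went from 9654 to 1904 reads (log2 fold change -1.96, interval -2.03 to -1.89). PAX5 was also lower (-0.80), and CD79B was higher (0.64). Of the 5 T-cell markers, 2 passed 3 reads in each library, TRAC and CD3G in Ramos and TRAC and CD3E in Ramos640. TRAC, the constant region of the T-cell receptor alpha chain, had 1555 reads in Ramos and 583 in Ramos640, while CD3D and CD2 were at 0 in both. CD3E had 1 and 31 reads, and CD3G had 5 and 1. The summed level of the T-cell list was 41.1 and 19.9 CPM in Ramos and Ramos640. It was 0.132 and 0.421 CPM for 4 myeloid markers and 1.10 and 0.518 CPM for 4 epithelial markers. The 3 fibroblast markers summed to 29.7 and 11.5 CPM, nearly all of it from COL1A1 and COL1A2. The part of these transcripts in the results below was not tested.

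Death receptors are cell surface proteins of the TNF receptor family that carry a death domain in their cytoplasmic tail. Bound by FAS ligand or TRAIL, FAS and the TRAIL receptors recruit the adaptor FADD, which gathers caspase-8 and caspase-10 into a death-inducing signalling complex. CFLAR resembles caspase-8 without its protease activity, enters the same complex and restrains it. TNF receptor 1, encoded by TNFRSF1A, instead recruits TRADD and RIPK1 into a complex that signals to NF-κB. RIPK1 freed of its ubiquitin chains, which CYLD removes, can pass into a cell death complex with FADD and caspase-8, or with RIPK3 and MLKL where caspase-8 is inactive. In germinal centre B cells, from which Burkitt's lymphoma arises, FAS takes part in the removal of cells.

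Of the 10 genes, 3 were past 1.5-fold, all of them higher in Ramos640, and none was lower. Over the 18778 genes tested, 14.6% were higher and 17.3% were lower by the same rule. TNFRSF1B differed most, and CFLAR and FAS lay just above the fold used. The other 7 genes, which include every adaptor and both TRAIL receptors, lay within 1.5-fold. As a group, the 10 genes had a median of 0.30 on the log2 fold change scale, beside -0.015 over all genes tested. The genes were chosen with earlier results of these data known, so these values describe them and do not test for a group shift. The intervals of 7 genes lay above 0, and those of TNFRSF10B, TRADD and CYLD included it. Among the 18778 genes tested, 5555 had an interval above 0, 5940 had one below it and 7283 had one that included it. These shares are not alike in depth, since genes tested start at 10 reads while FAS, the least read after TNFRSF1B, had 519. An interval clears 0 more readily with more reads. The intervals were computed under the main scaling only, and total counts lowered the log2 fold changes of FADD to 0.056 and RIPK1 to 0.16. TNFRSF1B, CFLAR and FAS remained past the fold under every scaling and pseudocount tried and after removal of the trend over GC content. Past 2-fold, or with an edgeR exact test that assumes a coefficient of variation of 0.2 between cultures, TNFRSF1B alone was left, and an assumed coefficient of 0.4 left none of the 10 genes. In pooled bulk RNA, a change in the share of cells that express a gene and a change in RNA per cell cannot be told apart.

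**Figure D1:**
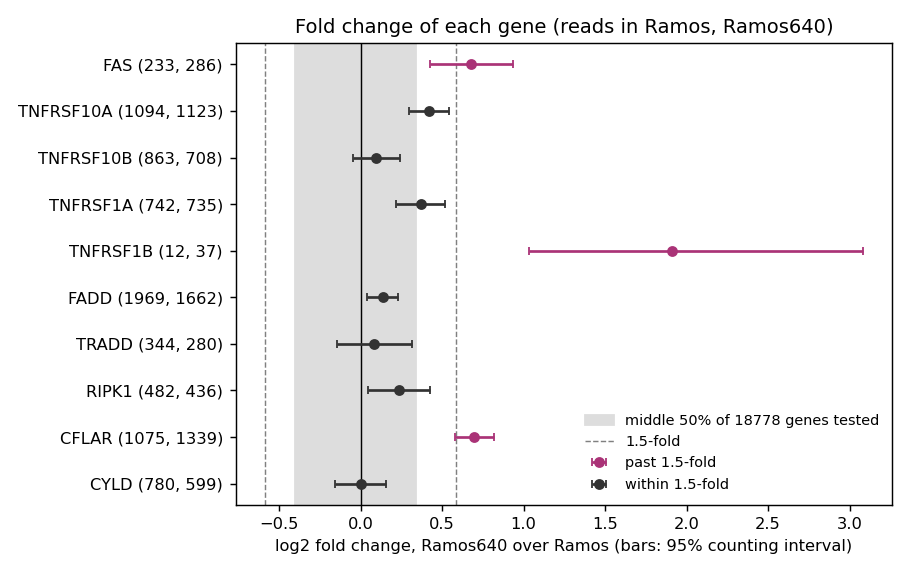
Log2 fold change of Ramos640 over Ramos for each of the 10 genes, with the reads in Ramos and Ramos640 in parentheses and bars for the 95% counting interval. The grey band holds the middle 50% of the 18778 genes tested, and TNFRSF1B, CFLAR and FAS lie to the right of the dashed 1.5-fold line.

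FAS, the receptor of FAS ligand, is encoded on the plus strand of chromosome 10, at positions 90750414 to 90775542 of GRCh37, the build of all positions given. FAS was covered by 233 Ramos reads and 286 Ramos640 reads, so its log2 fold change was 0.67 (interval 0.42 to 0.93). This interval held the 1.5-fold line, so the counts leave the position of FAS relative to that line undecided. After removal of the GC trend the value of FAS was 0.98, above the interval, so its size depends on the processing. FAS overlaps ACTA2 on the opposite strand, which had 31 and 33 reads, and its antisense row FAS-AS1 had 13 and 14. The strand setting of the counting is not given in the sources used here, and these rows are small beside FAS.

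TNFRSF10A and TNFRSF10B encode TRAIL receptors 1 and 2 and are neighbours on the minus strand of chromosome 8, from 23047965 to 23082615 and from 22877646 to 22926544. TNFRSF10A was covered by 1094 Ramos reads and 1123 Ramos640 reads, for a log2 fold change of 0.42 (interval 0.30 to 0.54). TNFRSF10B had 863 and 708 reads, for a log2 fold change of 0.095 (interval -0.050 to 0.24). A difference in TNFRSF10B was thus not detectable at this depth, while that in TNFRSF10A was beyond counting error and within 1.5-fold. TNFRSF10B overlaps RHOBTB2 on the opposite strand, which had 3109 and 3436 reads, over 377 identical bases of transcript, so reads there could have been assigned to either gene. No stretch at or above 95% identity joined the transcripts of the 2 TRAIL receptors to each other. The decoy receptor TNFRSF10D, between them on the chromosome, had 527 and 501 reads (log2 fold change 0.31, interval 0.13 to 0.49). TNFRSF10C, the other TRAIL decoy of the cluster, had no reads in either library.

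TNFRSF1A, which encodes TNF receptor 1, lies on the minus strand of chromosome 12 from 6437923 to 6451280. Its reads numbered 742 for Ramos and 735 for Ramos640, for a log2 fold change of 0.37 (interval 0.22 to 0.52). TNFRSF1B encodes TNF receptor 2, which binds TNF but has no death domain, and lies on the plus strand of chromosome 1 at 12227048 to 12269285. It was covered by 12 Ramos reads and 37 Ramos640 reads and was the least read of the 10 genes. Its log2 fold change of 1.91 (interval 1.03 to 3.08) ranked 325th from the highest among the 18778 genes tested. The width of the interval comes from the small counts, yet its lower end was above 2-fold. With a pseudocount of 10 the log2 fold change was 1.35.

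**Figure D2:**
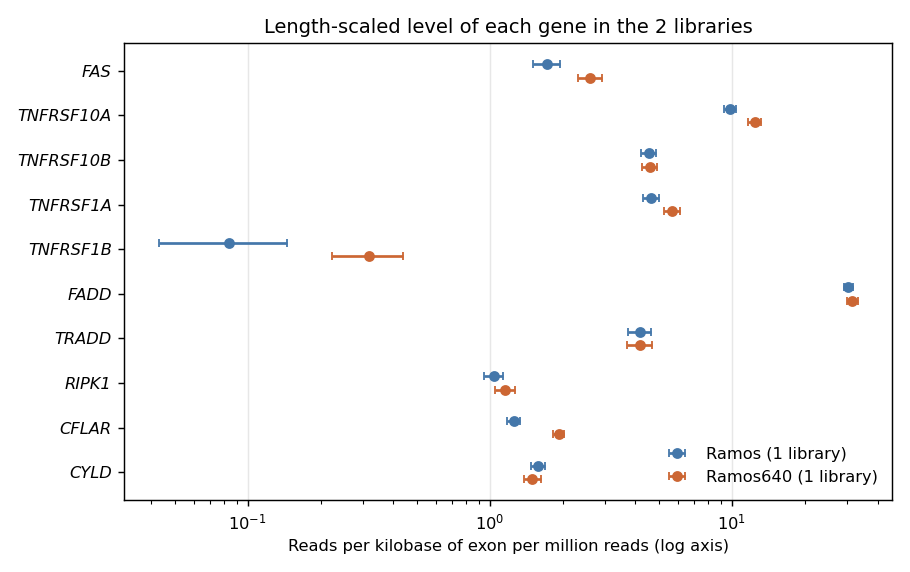
Level of each gene scaled to exon length and library total (RPKM, log axis) in the Ramos and Ramos640 libraries with 95% counting intervals. FADD is the highest and TNFRSF1B the lowest in both libraries, and the intervals of CFLAR, FAS, TNFRSF10A, TNFRSF1A and TNFRSF1B do not overlap between the libraries.

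FADD, which links FAS and TRAIL receptors to caspase-8, was covered by 1969 Ramos reads and 1662 Ramos640 reads. It lies on the plus strand of chromosome 11 from 70049402 to 70053496. Its log2 fold change was 0.14 (interval 0.041 to 0.23). The longest annotated transcript of FADD holds 655 bases that are 99.7% identical to a transcript of another annotated gene without a symbol. Some reads of FADD are therefore uncertain. TRADD, the adaptor of TNF receptor 1, lies on the minus strand of chromosome 16 from 67188088 to 67193812 and had 344 and 280 reads (log2 fold change 0.084, interval -0.15 to 0.32). RIPK1 lies on the plus strand of chromosome 6 from 3064058 to 3115421 and had 482 and 436 reads (log2 fold change 0.24, interval 0.046 to 0.43). The transcripts of these 3 signalling proteins downstream of the receptors thus differed by 1.18-fold or less. The direction is not settled for FADD and TRADD, whose log2 fold changes were -0.053 and -0.12 once the GC trend was removed.

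CFLAR encodes cellular FLIP and lies on the plus strand of chromosome 2 from 201980877 to 202041410. CFLAR was covered by 1075 Ramos reads and 1339 Ramos640 reads, for a log2 fold change of 0.70 (interval 0.58 to 0.82). The lower end of this interval was just under the 1.5-fold line. The counts per gene do not separate its long and short isoforms. Its longest annotated transcript holds 430 bases that are 95.3% identical to a transcript of MYH10, which had 2616 and 1220 reads, and the overlapping pseudogene IMPDH1P10 had 70 and 130 reads, so some reads of CFLAR are uncertain. CYLD, on the plus strand of chromosome 16 from 50775961 to 50835846, had 780 and 599 reads, for a log2 fold change of 0.00017 (interval -0.16 to 0.16). CYLD was thus at the same normalised count in both libraries within counting error, and its value was 0.25 after removal of the GC trend and -0.080 with total counts.

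Levels of different genes were compared as RPKM, the read count scaled to exon length and library total, with the union of all annotated exons as the length. FADD was the most abundant of the 10 transcripts, at 30.3 RPKM in Ramos and 31.5 RPKM in Ramos640. TNFRSF10A came next at 9.83 and 12.4 RPKM, followed by TNFRSF1A (4.64 and 5.66 RPKM), TNFRSF10B (4.53 and 4.58 RPKM) and TRADD (4.16 and 4.17 RPKM). In Ramos the intervals of neighbours in the order TNFRSF1A, TNFRSF10B and TRADD overlapped, whereas in Ramos640 only those of TNFRSF10B and TRADD did. FAS stood at 1.72 and 2.60 RPKM and CFLAR at 1.26 and 1.93 RPKM. CYLD was at 1.58 and 1.5 RPKM, with an interval that overlapped that of FAS in Ramos. RIPK1 followed at 1.04 and 1.16 RPKM. TNFRSF1B was lowest, at 0.0835 RPKM in Ramos and 0.317 in Ramos640. CFLAR was below CYLD in Ramos and above it in Ramos640. On the longest annotated transcript, the 5 highest genes and TNFRSF1B kept their places in both libraries, while the order among CYLD, FAS, RIPK1 and CFLAR was different.

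A ratio of 2 genes within a library does not depend on how the libraries are scaled. Its size depends on the gene length used, whereas its change between libraries does not. On the longest transcripts, CFLAR to FADD was 0.0638 in Ramos and 0.0942 in Ramos640, and TNFRSF10B to TNFRSF10A was 0.531 and 0.424. The ratios that follow use the union of exons. The CFLAR to FADD ratio was 0.0415 in Ramos (interval 0.0385 to 0.0447) and 0.0612 in Ramos640 (interval 0.0569 to 0.0658), a change of 1.48-fold with an interval of 1.33 to 1.64. FAS relative to TNFRSF10B changed by 1.5-fold (interval 1.22 to 1.84). Among the TRAIL receptors, the TNFRSF10B to TNFRSF10A ratio went from 0.461 to 0.368, so that it was 0.799 times as large in Ramos640 (interval 0.70 to 0.91). The TNFRSF1A to TNFRSF1B ratio was 55.6 in Ramos and 17.8 in Ramos640, and was 0.321 times as large in Ramos640, with an interval of 0.151 to 0.636. TRADD to FADD and RIPK1 to CYLD had changes of 0.964-fold (interval 0.81 to 1.15) and 1.18-fold (interval 0.992 to 1.40), and both intervals included no change.

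CASP8, which encodes the initiator caspase that CFLAR restrains, gave the largest rise of a ratio among the pairs compared. CASP8 was covered by 798 Ramos reads and 301 Ramos640 reads, for a log2 fold change of -1.02 (interval -1.22 to -0.83). CASP8 was no longer counted as lower with the edgeR exact test at an assumed coefficient of variation of 0.2. The CFLAR to CASP8 ratio was 0.434 in Ramos (interval 0.395 to 0.476) and 1.43 in Ramos640 (interval 1.26 to 1.63). It was thus 3.30 times as large in Ramos640, with an interval of 2.82 to 3.87. On the longest transcripts the ratios were 0.270 and 0.892, so which of both genes was more abundant in Ramos640 depends on the length used, whereas the change between libraries does not.

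**Figure D3:**
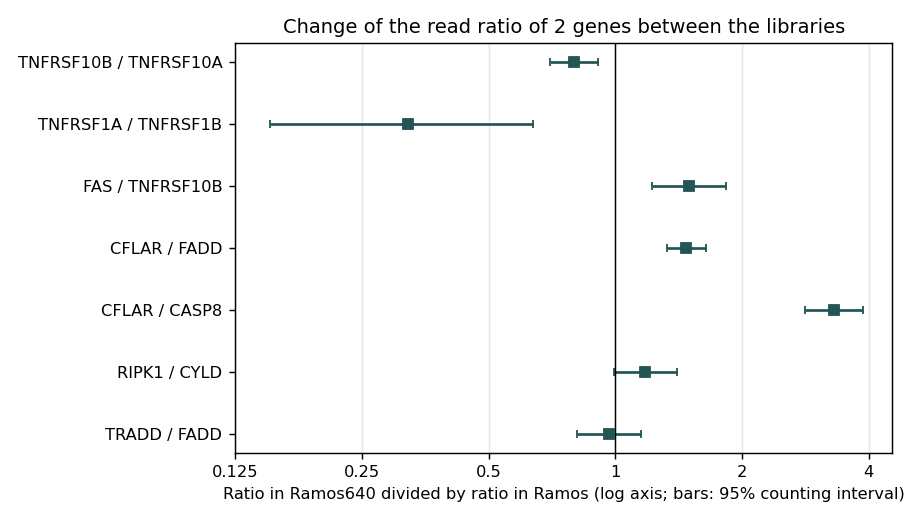
Change between the libraries in the ratio of 2 genes, as the ratio in Ramos640 divided by the ratio in Ramos on a log axis, with 95% counting intervals. CFLAR to CASP8 lies farthest to the right at 3.30, TNFRSF1A to TNFRSF1B farthest to the left at 0.321, and the intervals of TRADD to FADD and RIPK1 to CYLD cross 1.

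CFLAR, CASP10 and CASP8 are neighbours on the plus strand of chromosome 2, where CASP10 starts 6184 bases after CFLAR ends and CASP8 starts 4014 bases after CASP10 ends. CASP10, the other initiator caspase, had 47 and 64 reads (log2 fold change 0.81, interval 0.26 to 1.40). In this row of 3 genes, CFLAR and CASP10 were therefore higher and CASP8 was lower in Ramos640. The interval of CASP10 held the 1.5-fold line. With the edgeR exact test at an assumed coefficient of variation of 0.2, none of the 3 was counted as higher or lower. The 16 protein-coding genes with at least 100 reads within 1 Mb of CFLAR, with CASP10 and CASP8 counted among them, had a median log2 fold change of -0.34. CASP10 was the 1 higher gene of the 16 and CASP8 was 1 of the 4 lower ones, and CFLAR lay above 15 of them. FAS lay above all 5 of its neighbours, whose median was 0.076. TNFRSF1B lay above all 13 of its own, which had a median of 0.37 and a highest value of 1.12. By rank from the highest among the 18778 genes tested, FAS was 2296th, CFLAR 2194th and TNFRSF1B 325th. Most genes tested thus lay below them, so their place above their neighbours does not show a local difference. TNFRSF10A was close to its 17 neighbours (median 0.27) and TNFRSF1A to its 31 (median 0.26). FADD had 3 such neighbours, among them CTTN with 183 and 1057 reads.

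**Figure D4:**
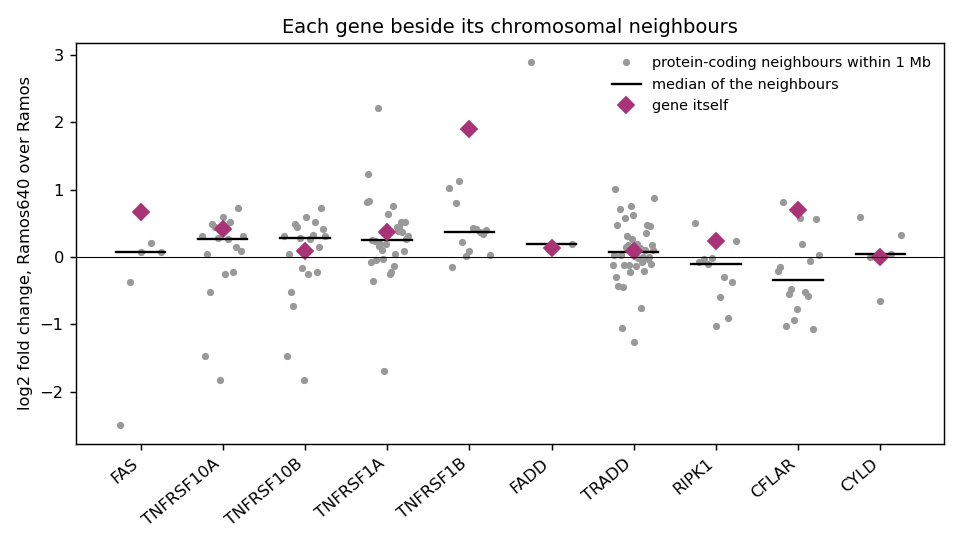
Log2 fold change of Ramos640 over Ramos for each gene (diamonds) and for the protein-coding genes with at least 100 reads within 1 Mb of it (grey points), with the median of these neighbours as a line. FAS and TNFRSF1B lie above all of their neighbours and CFLAR above 15 of 16, as they do above most of all genes tested. TNFRSF10A, TNFRSF1A, FADD and CYLD lie near the median of their neighbours.

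The start regions of TNFRSF1B and FAS, the receptors past the fold, are shown so that they can be compared, each from 250 bases before to 50 bases after an annotated start on GRCh37. They lie at chr1:12226798-12227097 (TNFRSF1B) and chr10:90750164-90750463 (FAS), both on the plus strand. Capitals mark matches of κB-like letters, GGG followed by any 5 bases and then CC, on either strand.
TNFRSF1B: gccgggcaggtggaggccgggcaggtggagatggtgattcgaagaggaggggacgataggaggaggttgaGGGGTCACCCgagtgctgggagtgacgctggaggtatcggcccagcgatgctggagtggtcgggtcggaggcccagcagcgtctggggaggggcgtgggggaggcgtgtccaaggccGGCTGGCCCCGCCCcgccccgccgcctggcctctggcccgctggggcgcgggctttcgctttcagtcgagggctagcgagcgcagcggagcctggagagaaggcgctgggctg
FAS: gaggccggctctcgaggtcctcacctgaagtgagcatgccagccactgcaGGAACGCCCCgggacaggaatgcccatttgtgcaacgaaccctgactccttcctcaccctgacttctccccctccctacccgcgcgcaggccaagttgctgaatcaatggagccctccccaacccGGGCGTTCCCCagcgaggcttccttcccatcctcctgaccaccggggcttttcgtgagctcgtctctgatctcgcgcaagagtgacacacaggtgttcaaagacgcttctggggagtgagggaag
The window of TNFRSF1B held 3 matches and that of FAS 3, in each case with 2 that overlap one another. Such letters occurred in 68.8% of the 20149 protein-coding start regions of the same length. The windows held 27 (TNFRSF1B) and 17 (FAS) CpG pairs, beside a median of 23 over all start regions. FAS has several annotated starts, and only 1 is shown.

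The wider pathway was examined as a list of 57 other genes, all with a row, of which 50 had at least 10 reads. Of these 50 genes, 10 were higher and 4 were lower past 1.5-fold, beside the 14.6% and 17.3% of all genes tested. Their median log2 fold change was 0.065. This median was -0.015 with total counts, so the list as a whole showed no direction that held under each scaling. Past 2-fold, 2 genes were higher and 4 lower. Over all genes tested, 12797 of 18778 lay within 1.5-fold, and the counts of the small groups below are given as descriptions beside that share.

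Among the ligands, TNFSF10, which encodes TRAIL, was covered by 383 Ramos reads and 98 Ramos640 reads (log2 fold change -1.58, interval -1.92 to -1.26). TRAIL was thus lower in Ramos640, while both of its death receptors lay within 1.5-fold. LTA, which encodes lymphotoxin alpha, had 285 and 362 reads (0.72, interval 0.50 to 0.96), and without the GC trend its value of 0.56 was under the fold used. TNF had 91 and 70 reads (0.0025, interval -0.47 to 0.47). FASLG, the ligand of FAS, and TNFSF15 had no reads in either library, which allows up to 0.0789 CPM in Ramos and 0.0972 CPM in Ramos640.

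Of the 8 other death and decoy receptors, 3 were tested. TNFRSF21, death receptor 6, had 233 and 289 reads (log2 fold change 0.69, interval 0.44 to 0.95). TNFRSF6B, a decoy for FAS ligand, was past the fold on 4 and 6 reads only, and its interval -1.11 to 3.23 included 0. TNFRSF25, EDAR and NGFR had 3 reads or fewer in both libraries together.

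Beside CASP8 and CASP10, the proteins with death effector domains included PEA15, a cytoplasmic protein that can bind FADD, with 3447 and 4244 reads (log2 fold change 0.68, interval 0.62 to 0.75). Its value after removal of the GC trend, 0.58, was under the fold. BID, the substrate through which caspase-8 reaches the mitochondria, had 2551 and 2044 reads (0.061, interval -0.023 to 0.15). Of the 10 modulators, FAIM2 alone was past the fold. FAIM2, an inhibitor of FAS signalling, had 18 Ramos reads and 0 Ramos640 reads. With 3 reads set in place of the 0, it was 4.61-fold lower. The upper end of its counting interval was a log2 fold change of -1.76, which is a smaller difference.

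Ubiquitin ligases and deubiquitinases act on the TNF receptor complex. None of the 7 ligases and TRAFs was past the fold, with TRAF2 at 0.53, BIRC2 at -0.36 and BIRC3 at -0.042 on the log2 fold change scale. After removal of the GC trend, TRAF2 was at 0.35, BIRC2 at -0.066 and BIRC3 at 0.31. The direction of BIRC3 is therefore not settled. In the linear ubiquitin group of 4 genes, SHARPIN had 563 and 663 reads (0.62, interval 0.45 to 0.78). SHARPIN was under the fold with total counts and after removal of the GC trend. TNFAIP3, which encodes the NF-κB inhibitor A20, had 368 and 541 reads (0.93, interval 0.74 to 1.13). SPATA2, the partner of CYLD, had 430 reads in each library (0.38, interval 0.18 to 0.58). OTUD7B, a deubiquitinase related to A20, had 32 and 10 reads (-1.23, interval -2.49 to -0.24). OTUD7B was not tested at a minimum of 100 reads and was not counted as lower at an assumed coefficient of variation of 0.2. IKBKB was the 1 of the 7 kinase complex genes past the fold, with 1562 and 1900 reads (0.66, interval 0.57 to 0.76), but was under it with total counts.

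Of the 4 necroptosis genes, 2 were higher, beside the 14.6% of all genes tested, and 4 genes are too few to read a group difference from. MLKL, which permeabilises the membrane in necroptosis, was covered by 112 Ramos reads and 298 Ramos640 reads (log2 fold change 1.78, interval 1.47 to 2.12). ZBP1, a nucleic acid sensor that can bind RIPK3, had 4 and 54 reads (3.80, interval 2.70 to 6.06) and ranked 44th from the highest of all genes tested. With a pseudocount of 10 the value of ZBP1 was 2.41. RIPK3, the kinase that acts on MLKL, had 566 and 399 reads (-0.12, interval -0.31 to 0.064). MLKL and ZBP1 were therefore higher in Ramos640, whereas RIPK1 and RIPK3 lay within 1.5-fold.

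**Figure D5:**
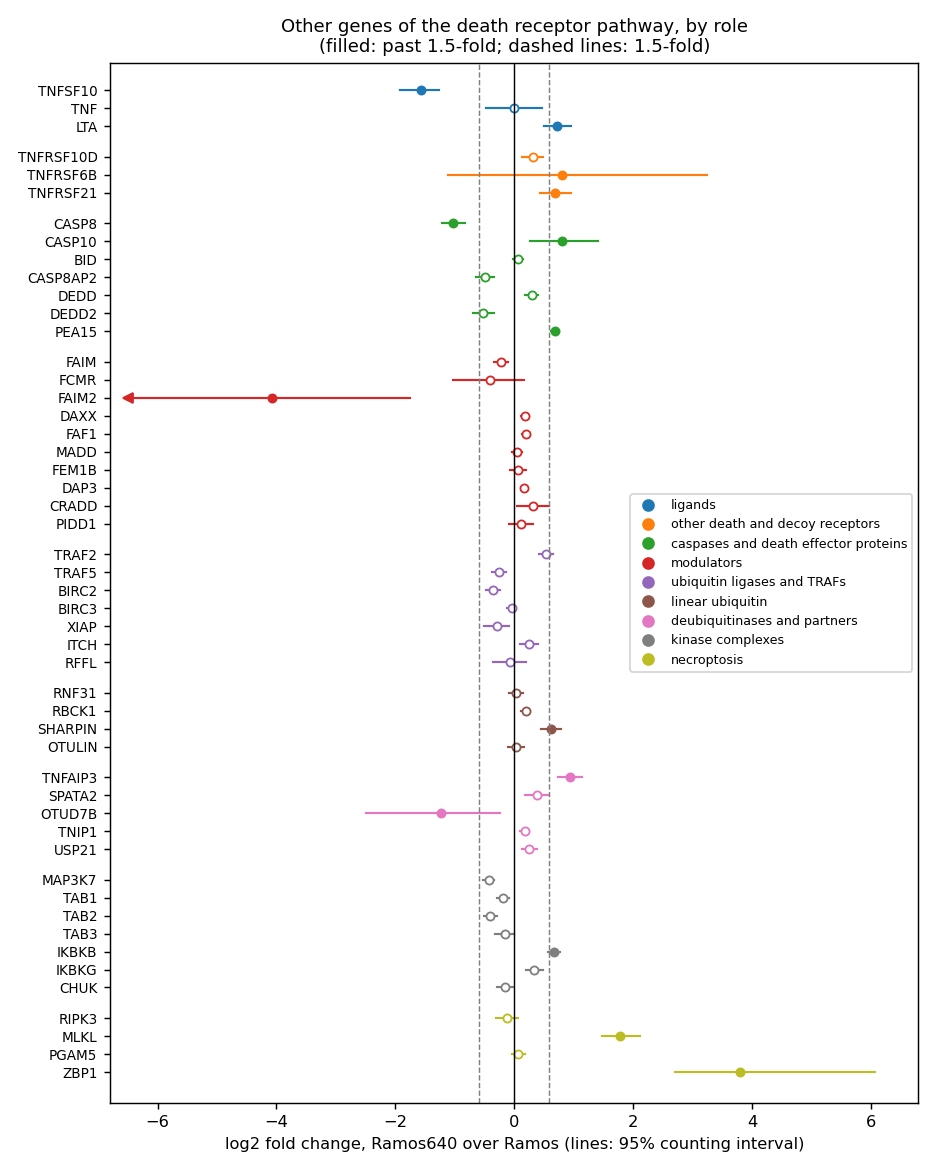
Log2 fold change of Ramos640 over Ramos for the 50 other pathway genes with at least 10 reads, coloured by role, with lines for the 95% counting interval and filled points for genes past 1.5-fold. ZBP1 (3.80) and MLKL (1.78) lie farthest to the right, TNFSF10 (-1.58) and CASP8 (-1.02) are on the left, and the arrow marks FAIM2, whose interval has no lower end because it had 0 reads in Ramos640.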

How the data were processed

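RNA-seq measured 2 libraries, 1 of Ramos and 1 of Ramos640 cells, each a pool of RNA from 3 passages. After removal of adaptor sequences, the authors aligned the Ion Proton reads to GRCh37 with MapSplice and deposited read counts per gene without normalization. The counting program, its annotation and its use of strand and of reads with several matches are not given in the sources used here. Of the rows, 28 carry a number in place of a gene name (0.205% of reads in Ramos, 0.176% in Ramos640) and were kept.

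Size factors, fold changes and exact intervals (Clopper-Pearson for shares of 2 counts, Poisson for levels, conditional for odds ratios) were computed in Python 3.11.15 with SciPy 1.17.1. They cover counting error only. A count of 0 was taken to allow up to 3 reads. With 1 library per line no dispersion can be estimated, so there is no test between the lines. Alternatives were edgeR 4.0.16 TMM factors, total counts, pseudocounts of 0.1 and 10, minimums of 1 and 100 reads, a running median over GC content (501 genes), a 2-fold limit, the interval excluding no change, and the edgeR exact test at an assumed coefficient of variation of 0.2 or 0.4 with a Benjamini-Hochberg FDR of 0.05.

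Positions, exon lengths, GC content and start regions were taken from GENCODE v44lift37. This annotation is on GRCh37, as the deposited counts are, and matched 28813 rows (84.2% of the genes tested). Near-identical stretches were found with BLAST at 95% identity. The genes named are the 10 genes, those of the pathway list past 1.5-fold with at least 10 reads, and a fixed set of their direct partners. Other named genes (TNFRSF10C, TNFRSF10D, TNFSF15, TNFRSF25, EDAR, NGFR, neighbours and overlapping genes) came from the lists or from position. Likeness to other genes was not computed, since a pattern over 2 libraries is a single ratio. The 10 genes and the lists were chosen with earlier results of these data known. The steps were checked on simulated counts. The start region of CFLAR is not reported here.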

Additional observations from a re-analysis of the deposited data

How the results depend on the processing

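The sign of the 10-gene median and the direction of the 3 higher genes held under every scaling, pseudocount and filter run, except that TNFRSF1B has 49 reads in all and is not tested at a minimum of 100 reads. The number of the 10 genes that were higher was 3 in the main result, 1 (TNFRSF1B) past 2-fold, 1 (TNFRSF1B) with edgeR's exact test at an assumed coefficient of variation of 0.2, and 0 at 0.4. None was lower in any setting. For the pathway list, 10 genes were higher and 4 lower. The 2-fold limit gave 2 higher, and a minimum of 100 reads gave 2 lower. The assumed coefficients of 0.2 and 0.4 left 2 and 0 higher and 2 and 0 lower genes. With the GC trend removed, 7 were higher and 5 lower. The median of the list went from 0.065 to -0.015 with total counts, which also moved the median of all genes tested from -0.015 to -0.095. Over all genes tested, 6.64% were higher and 8.75% lower past 2-fold, 1.69% and 2.68% at a coefficient of 0.2, and 0.144% and 0.192% at 0.4. These stricter rules call fewer genes by construction. Of 300 recomputed fold changes of 60 genes, 35 left their counting interval and none past the fold changed sign. Of 20 levels, 16 left their interval on the longest transcript. No paired analysis was possible because each cell line has 1 library. Of the 10 genes, depth limits TNFRSF1B most, with 12 reads in Ramos, and in the pathway list it limits TNFRSF6B, ZBP1, OTUD7B and FAIM2. The spread between cultures cannot be estimated here.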
